A study of Zea mays with 16 samples.

Results

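The 350 probes described here were designed on maize assembled genomic islands (MAGI), and they were all of the non-control probes whose target name in the scanner files began with MAGI. They lay on 66 islands and made up 350 of the 42034 non-control probes of the array. The comparison set was the 27161 probes whose target name began with TC, a tentative consensus of transcript sequences, on 25293 such targets. The choice used names only and no measured value.

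An assembled genomic island is a contig built from gene-enriched genomic survey reads of maize, so its sequence is known from DNA and need not come from a transcript. A tentative consensus is a contig built from expressed sequence tags and cDNA, so each of its sequences was seen as RNA at least once. A probe on an island therefore asks whether a stretch of genomic sequence is represented in the RNA of a tissue. The tissue here was the anther, in which the tapetum, the innermost somatic wall layer, feeds the developing pollen, and ms23 and ms32 are genes for basic helix-loop-helix factors that the maize tapetum needs to form.

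The study compared whole anthers of 1.5 mm from male-sterile plants and their fertile siblings, grown and dissected in a field at Stanford, with 8 two-colour Agilent arrays from 2 slides. The 16 labelled samples were 6 of ms23 mutants, 2 of fertile siblings from the ms23 family, 6 of ms32 mutants and 2 of fertile siblings from the ms32 family. The labels name no allele, treatment or plant age. Slide 1 held 4 arrays of an ms23 mutant against an ms32 mutant, and slide 2 held 2 arrays of each mutant against its own fertile sibling, with the dyes in opposite orientation within each pair. Each mutant had 3 replicate numbers and each fertile sibling had 1, every number appeared once in each dye, and the series text gives 2 biological replicates per mutant and sibling comparison. The p-values below therefore measure the spread between arrays, which may be partly technical. Of 25 marker names listed for tapetum, meiocytes and leaf, the files named 1 on the array, am1, which meiocytes need to enter meiosis, and its 3 probes were well above background in all 16 samples. The share of other cell types in these whole anthers was not tested.

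Island positions, strands and probe sequences were not used here. None of the 66 island names matched the RefSeq gene table (0 of 66), so probes are given by probe identifier and island name, with no gene or exon. Probes of 1 island share their target, and 65 of the 66 islands carried 2 or more probes, with a median of 4.5 probes and a maximum of 23 on MAGI4_38589.

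Most of the island probes gave a signal above background in anthers, but fewer did so than among the transcript-derived probes. Detection was read from the scanner software's mark for a spot well above background. The share of island probes with that mark lay between 54.9% and 84.0% over the 16 samples, with a median of 64.1%, against 88.5% to 97.1% of TC probes, with a median of 90.9%. The share was lower for island probes than for TC probes in all 16 samples, with a difference of -33.7 to -13.1 percentage points. Among the 153 negative control spots of an array the same mark was set on 0.654% to 4.58%. For a single sample the exact (Clopper-Pearson) 95% interval of the island share was 49.5% to 60.2% at its lowest and 79.7% to 87.7% at its highest. Such intervals cover counting error over probes only, and probes of 1 island are not independent.

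By group, the island share was 69.1% ± 7.37 in ms23 mutants (SD, n = 6 samples), with a lowest, median and highest value of 61.7%, 67.5% and 80.6%, and it was 59.7% and 63.7% in the 2 samples of ms23 fertile siblings. It was 66.3% ± 9.62 in ms32 mutants (SD, n = 6 samples), with a lowest, median and highest value of 54.9%, 64.4% and 84.0%, and it was 57.4% and 64.6% in the 2 samples of ms32 fertile siblings. The groups overlapped. The highest island shares, 80.6% for an ms23 mutant and 84.0% for an ms32 mutant, came from the same array, array 4 of slide 1, where the TC shares were also the highest at 94.6% and 97.1%. The Cy5 sample had the higher island share on 6 of 8 arrays and also the higher TC share on 6 of 8 arrays.

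Within the array, ms23 mutants minus ms32 mutants differed in the island share by -0.571, -5.14, 9.71 and -3.43 percentage points on the 4 arrays of slide 1. The mean was 0.142 ± 6.65 percentage points (SD, n = 4 arrays; exact two-sided sign-flip permutation test, p = 1.0), and 4 arrays cannot give a p below 0.125. The sign was not the same on all 4 arrays. The difference was -0.571 and 9.71 with the ms23 mutant in Cy5, and -5.14 and -3.43 with it in Cy3. The test takes dye-swapped arrays of the same replicate numbers as separate units, so its p may rest on fewer independent replicates. Mutant minus fertile sibling was 8.29 and 3.14 percentage points on the 2 arrays of the ms23 family, and 6.0 and -9.71 percentage points on the 2 arrays of the ms32 family, with no test on 2 arrays. The TC share moved in the same direction as the island share on each array. In the same order, the TC differences were -0.7, -3.0, 2.5 and -2.51 percentage points on slide 1. They were 3.09 and 1.46 in the ms23 family, and 1.47 and -1.37 in the ms32 family.

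**Figure D1:**
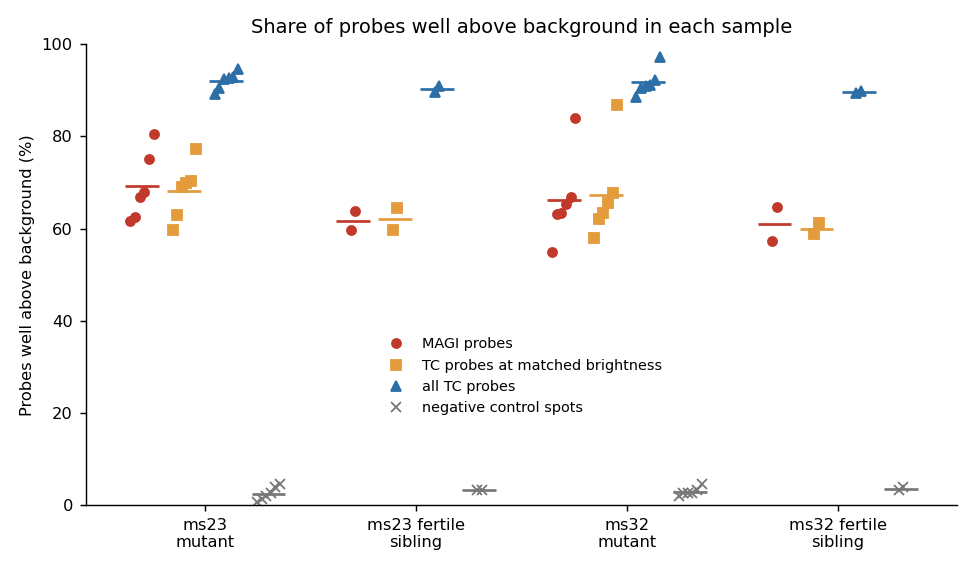
Each point is the share of probes well above background in 1 of the 16 samples, in percent, by group, with a bar at the group mean. MAGI probes lie between 54.9% and 84.0%, TC probes matched to them in brightness lie between 57.9% and 86.7%, all TC probes lie between 88.5% and 97.1%, and negative control spots lie below 5%.

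The gap in detection went with brightness. TC probes were weighted to the brightness of the island probes in 10 bins of mean log2 intensity over the arrays. With that weighting 57.9% to 86.7% of TC probes were well above background over the 16 samples, and the island probes' share minus the matched TC share lay between -3.03 and 4.78 percentage points. The group mean of that difference was 0.995 ± 2.94 points in ms23 mutants (SD, n = 6 samples) and -0.918 ± 2.39 points in ms32 mutants (SD, n = 6 samples), which is less than the spread between samples in both. In the fertile siblings it was -0.68 and -0.00629 points for the ms23 family, and -1.38 and 3.43 points for the ms32 family. At equal brightness the classes had detected shares that differed by under 5 percentage points in each sample. The mark and the brightness are read from the same spots, so matching on brightness brings the shares together partly by construction.

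The number of samples in which a probe was detected also went with brightness. Of the 350 island probes, 117 (33.4%) were well above background in all 16 samples, against 21081 (77.6%) of the TC probes and 31.3% of TC probes at matched brightness. A further 221 island probes (63.1%) carried the mark in 1 to 15 samples, against 5961 TC probes (21.9%), and 12 (3.43%) in none, against 119 TC probes (0.438%) and 1.95% of TC probes at matched brightness. The first 5 of those 12 in probe order were A_92_P000152 on MAGI4_8735, A_92_P002006 on MAGI4_112201, A_92_P004120 on MAGI4_111165, A_92_P007814 on MAGI4_106235 and A_92_P013119 on MAGI4_155772, with mean log2 levels of 5.87 to 5.95. No island probe was well above background in every sample of one family and in none of the other (0 of 350), a pattern that 0.105% of all non-control probes showed.

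Island probes were dim as a class. A probe's level in a sample is its log2 intensity after background correction with an offset of 50, loess within arrays and quantile scaling of the array averages. The offset sets a floor, and probes not detected anywhere sat just under 6 on this scale. The median island probe had a mean level of 6.13 over the 16 samples and the 90th percentile was 7.71, while the median TC probe stood at 8.18 and its 90th percentile at 11.99. The median level of island probes minus that of TC probes was -1.91 to -2.06 in the 16 samples. By group it was -1.95 ± 0.03 in ms23 mutants and -1.99 ± 0.05 in ms32 mutants (SD, n = 6 samples each), -1.99 and -1.95 in the ms23 fertile siblings and -2.04 and -1.92 in the ms32 fertile siblings. Quantile scaling gives all arrays the same distribution of averages. The small spread between samples and groups is therefore partly set by the normalization. On the raw scale the median spot intensity of island probes was 48.0 to 72.25 units per sample, that of TC probes 153.0 to 558.0, and that of negative control spots 39.5 to 44.0. The distance in level depends on the offset: with an offset of 10 it was -2.93 in ms23 mutants and -2.99 in ms32 mutants. No reading of an island probe was saturated (0 readings).

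A few islands were bright. There were 33 island probes (9.43%) on 12 islands above the median TC probe. The 5 brightest were A_92_P038473 and A_92_P015075 on MAGI4_30176, with mean levels of 15.1 and 14.66, A_92_P026094 and A_92_P015203 on MAGI4_159460, with 13.94 and 13.9, and A_92_P028006 on MAGI4_160472, with 12.92. All 5 were well above background in all 16 samples. The island with most probes, MAGI4_38589, had 16 of its 23 probes detected in all 16 samples and mean levels from 5.87 to 12.17.

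Most islands spanned a narrow range of levels and a few a wide one. The median range over islands with 2 or more probes was 0.74, against 1.93 over the 1742 TC targets with 2 or more probes, and it exceeded 5 on 6 islands. On MAGI4_30176 the 4 probes had mean levels of 6.34, 8.56, 14.66 and 15.1, a range of 8.76, the widest of the 66 islands, although all 4 were detected in all 16 samples. On MAGI4_81813 the 2 probes stood at 6.39 and 12.24. These ranges compare different probe sequences and depend on the number of probes and on brightness. A probe detected in all 16 samples was present on 47 islands, every probe was so detected on 10 islands, none on 19, and 37 islands held both kinds.

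**Figure D2:**
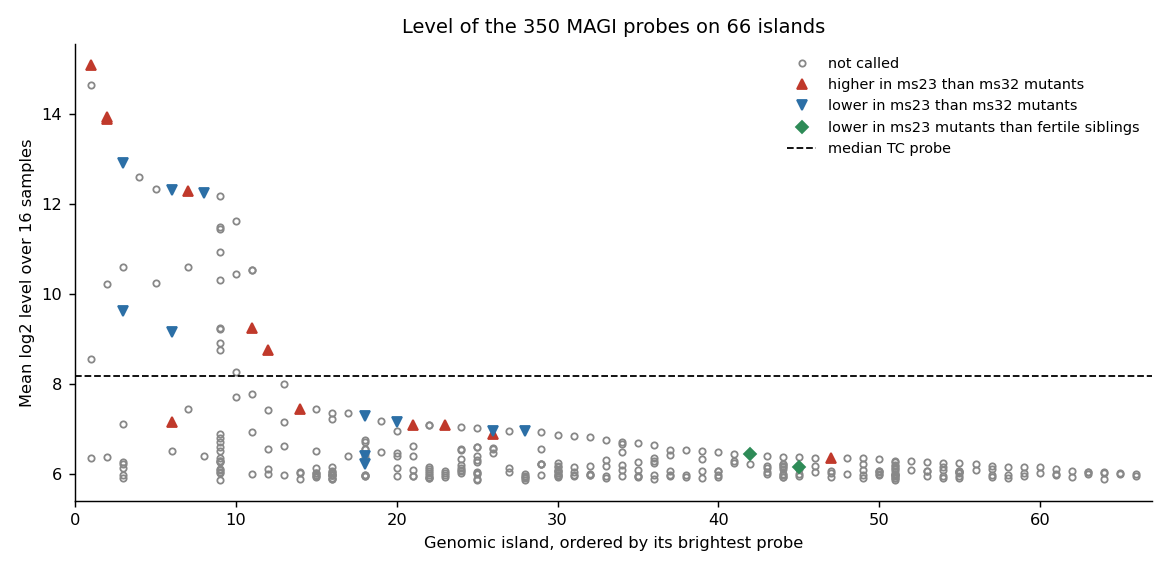
Each column is 1 of the 66 islands, ordered by its brightest probe, and each point is a probe's mean log2 level over the 16 samples; filled symbols mark probes called in a comparison. The dashed line is the median TC probe at 8.18, above which 33 island probes on 12 islands lie.

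For the comparisons, log2 ratios of all probes were fitted with limma on the 8 arrays with a dye term, p-values were adjusted by the Benjamini-Hochberg method over all probes tested, and an adjusted p under 0.05 counts as a call. The test took in every probe that carried the detection mark in 50% or more of the samples in 1 or more groups. Of the 350 island probes 304 (86.9%) were tested, on all 66 islands, against 26470 (97.5%) of the TC probes. The 46 island probes not tested had mean levels of 5.86 to 6.01 and were detected in at most 4 samples, so nothing is said of their ratios.

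In ms23 mutants 2 of 304 island probes fell and 0 rose relative to the family's fertile siblings, on 2 islands. Over all probes tested 1.31% were called, and 0.928% were called lower. The share of island probes called was 0.658% (exact 95% interval 0.0798% to 2.36%), against 0.624% of TC probes at matched brightness and 1.54% of all TC probes. The 2 probes were A_92_P030806 on MAGI4_129391 and A_92_P031535 on MAGI4_57154. In these bulk samples, fewer cells of a type and less RNA per cell cannot be told apart.

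A_92_P030806 had levels of 6.15, 6.27 and 6.4 in ms23 mutants (lowest, median and highest of 6 samples), against 7.17 and 8.23 in the 2 samples of ms23 fertile siblings. Both samples of the ms23 fertile siblings were above all 6 ms23 mutants, and no other group reached them: the levels were 5.99 to 6.43 in ms32 mutants and 6.07 and 6.35 in ms32 fertile siblings. The fitted log2 ratio of ms23 mutants over fertile siblings was -1.39 (SE 0.141, limma adjusted p = 0.0175), 2.62-fold lower in the mutants. The size depends on the offset, with a log2 ratio of -2.11 at an offset of 10 and -2.85 with the scanner software's processed signals, and the call was kept in both. The probe was well above background in 6 of 6 samples of ms23 mutants, 2 of 2 of ms23 fertile siblings, 5 of 6 of ms32 mutants and 2 of 2 of ms32 fertile siblings. The other probe of MAGI4_129391, A_92_P001573, had a log2 ratio of -0.06.

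A_92_P031535 had levels of 5.8, 5.93 and 6.09 in ms23 mutants (lowest, median and highest of 6 samples), against 7.4 and 7.09 in the 2 samples of ms23 fertile siblings. The groups did not overlap. It was above background in only 1 of 6 samples of ms23 mutants, against 2 of 2 of ms23 fertile siblings, so its level in the mutants lies at the floor. The fitted log2 ratio was -1.35 (SE 0.15, limma adjusted p = 0.0222). With the mutants at the floor its size depends on the setting and is not settled. The ratio was -2.50 at an offset of 10 and -5.42 with the processed signals. In ms32 mutants its levels were 5.93 to 6.05, and in ms32 fertile siblings 6.04 and 5.98. The other 4 probes of MAGI4_57154 had log2 ratios between -0.1 and 0.01.

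The gaps in level between the groups of these probes come from the same values as the calls. The share of all probes with such gaps is not given here. Both calls rested on the ratios of 2 arrays, -0.91 and -1.87 for A_92_P030806, and -1.6 and -1.09 for A_92_P031535. With the dye-swapped arrays of a replicate number averaged, as would suit swaps of the same RNA, neither was called (limma adjusted p = 0.129 and 0.133), and the count of island probes called was 0. At an unadjusted p under 0.05 there were 25 island probes (8.22%), 7 higher and 18 lower, against 11.6% of all probes.

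Between ms32 mutants and their fertile siblings no island probe was called by limma (0 of 304), where 0.49% of all probes tested (0.035% higher and 0.455% lower) and 0.294% of TC probes at matched brightness were. An unadjusted p under 0.05 was reached by 9 island probes (2.96%), 1 higher and 8 lower, against 7.82% of all probes. The fitted log2 ratios of the 304 probes lay between -0.91 and 0.67, and even the ratio of -0.91 did not pass the threshold with 2 arrays.

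The 3 probes with the smallest unadjusted p were all lower in the mutants. A_92_P040556, the only probe of MAGI4_56775, had levels of 10.99, 12.52 and 13.08 in ms32 mutants (lowest, median and highest of 6 samples), against 11.72 and 13.7 in ms32 fertile siblings, which overlapped, and a log2 ratio of -0.91 (limma adjusted p = 0.147). A_92_P010183 and A_92_P005715, both on MAGI4_28695, had log2 ratios of -0.52 (adjusted p = 0.243) and -0.41 (adjusted p = 0.38). The 2 samples of ms32 fertile siblings, 1 replicate number in both dyes, were at 7.4 and 7.05 for A_92_P010183, against a highest mutant of 6.86. For A_92_P005715 they were at 6.6 and 6.5, against a highest mutant of 6.38. These probes were picked by the same values, and the share of all probes with such a gap is not given here. In the ms23 family the ratios of A_92_P010183 and A_92_P005715 were -0.37 (limma adjusted p = 0.285) and -0.6 (limma adjusted p = 0.0944). The families share neither mutants nor siblings, and none of these 4 ratios passed the threshold.

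The difference between the mutants' effects, ms23 minus ms32, was called for no island probe by limma (0 of 304), where 0.03% of all probes tested were called, and 9 island probes had an unadjusted p under 0.05, which 5.68% of all probes had. The smallest p-values belonged to A_92_P030806 (log2 difference -1.33, adjusted p = 0.252), A_92_P031535 (-1.37, adjusted p = 0.252) and A_92_P034660 on MAGI4_300 (-0.58, adjusted p = 0.562). The fall of A_92_P030806 and A_92_P031535 in the ms23 family is therefore not shown to differ from the ms32 family.

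The direct comparison of ms23 mutants with ms32 mutants, on 4 arrays, called most. Of 304 island probes 12 were higher and 11 lower in ms23 mutants, 7.57% in all, where 20.6% of all probes tested were called (9.51% higher and 11.1% lower). The exact 95% interval of the island share was 4.86% to 11.1%. Among TC probes 24.0% were called over all and 10.4% at matched brightness, or 9.99% among the 50 TC probes nearest in brightness to each island probe. An unadjusted p under 0.05 was reached by 45 island probes (14.8%), 32 higher and 13 lower, against 34.1% of all probes. The island share minus the matched TC share was -2.84 percentage points, and this difference was not tested. The interval covers counting error over probes only, and probes of 1 island are not independent. None of the 23 probes was called in either comparison with fertile siblings (0 of 23), and neither were most others: of all probes called between the mutants, 2.97% were. The ratios were 1.21- to 1.95-fold for the probes higher in ms23 than in ms32 mutants and 1.2- to 4.96-fold for those lower, and 3 of 23 passed 2-fold in either direction. The offset of 50 compresses the ratios of dim probes, so these sizes hold for that setting: of the same 23 probes 6 passed 2-fold with an offset of 10, and 10 with the scanner software's processed signals, where the folds reached 3.36 among the higher probes and 15.56 among the lower ones.

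Calls lay among the brighter island probes. In the 5 dimmest bins, up to a mean log2 intensity of 6.21, 0 island probes were called, against 0% to 3.21% of TC probes. In the bins from 6.21 to 6.9 the island share was 3.33%, 6.45% and 3.33%, against 7.26%, 11.2% and 18.9% of TC probes. The widest gap of all bins was the last of these, between 6.51 and 6.9. In the brightest bins the island share was 26.7% against 31.2% of TC probes between 6.9 and 8.69, and 35.5% against 30.3% of TC probes above that. The 2 brightest bins held 8 and 11 of the 23 calls. The top bin is wide, and TC probes within it need not have the same brightness as the island probes.

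**Figure D3:**
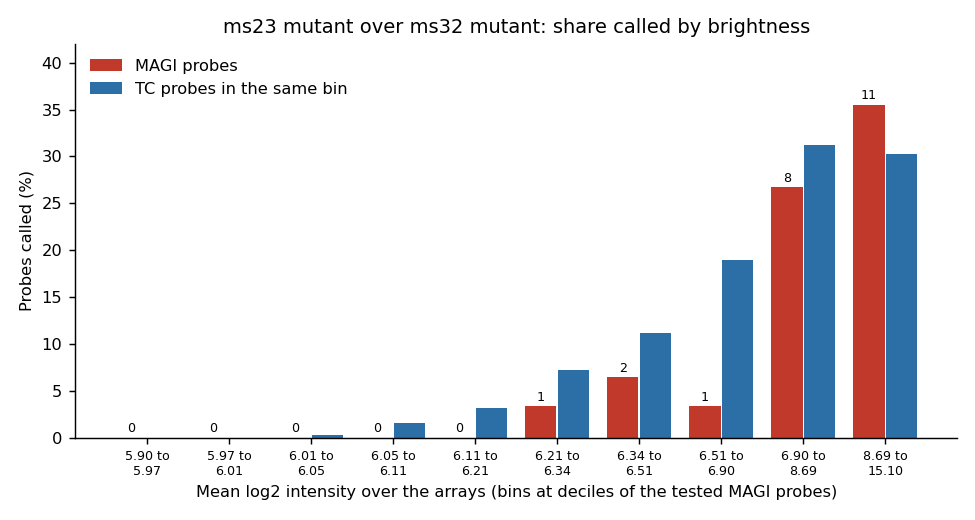
Bars give the percent of probes called between ms23 and ms32 mutants in bins of mean log2 intensity, MAGI probes beside the TC probes of the same bin, with the number of MAGI probes called above each MAGI bar. No MAGI probe is called in the 5 dimmest bins, and 19 of the 23 calls lie in the 2 brightest.

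The largest difference was that of A_92_P028006 on MAGI4_160472. Its levels in ms23 mutants were 9.42, 11.4 and 13.31 (lowest, median and highest of 6 samples), against 11.69, 14.21 and 16.39 in ms32 mutants. The groups overlapped in level, but on each of the 4 arrays that held both mutants the ms23 mutant was lower, with log2 ratios of -2.26, -2.29, -3.02 and -1.68. The fitted log2 ratio was -2.31 (SE 0.235, limma adjusted p = 0.00191). A_92_P012899 on MAGI4_81813 was next, with 8.33, 9.73 and 13.89 in ms23 mutants, against 10.63, 14.35 and 16.26 in ms32 mutants. Its log2 ratios on the same 4 arrays were -2.3, -2.21, -2.85 and -1.54, with a fitted value of -2.23 (SE 0.267, limma adjusted p = 0.00343).

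These 2 probes, on different islands, had nearly the same ratio on each array, and both also changed most in brightness between arrays. The mean of the 2 samples of an array ran from 10.56 to 15.94 for A_92_P028006 and from 8.73 to 15.8 for A_92_P012899, ranges of 5.38 and 7.07. Those were the widest ranges of the 350 island probes, whose median range was 0.38 and next widest was 2.6. Each array of slide 2 held 1 family only, so these ranges take in the difference between families. On slide 2 A_92_P012899 stood at 8.6 to 10.11 in the ms23 family and at 14.72 to 16.26 in the ms32 family. A_92_P028006 stood at 10.68 to 11.78 and at 14.09 to 16.39. Among TC probes the median range was 1.07, and 1.55% had a range over 4, against 0.571% of island probes. This likeness was seen after the values were known.

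In the fertile siblings the same 2 probes also differed between the families. The siblings of the 2 families were on different arrays, and these probes varied most between arrays, so family and array cannot be told apart here. A_92_P028006 had 11.78 and 11.29 in ms23 fertile siblings, against 14.62 and 15.49 in ms32 fertile siblings, and A_92_P012899 had 8.86 and 10.11 against 15.49 and 15.34. Neither probe was called between a mutant and its own fertile sibling: the log2 ratios were -0.45 (adjusted p = 0.776) and -0.53 (adjusted p = 0.758) in the ms23 family, and 0.18 and 0.08 (both adjusted p = 1.0) in the ms32 family.

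The 2 next largest ratios below 0 belonged to dimmer probes, and here too the fertile siblings of the 2 families were on different arrays. A_92_P022675 on MAGI4_37022 had levels of 6.09, 6.3 and 6.9 in ms23 mutants, against 7.39, 8.11 and 8.6 in ms32 mutants (lowest, median and highest of 6 samples each), with no overlap and a fitted log2 ratio of -1.59 ± 0.21 (SE; limma, adjusted p = 0.00472). Its fertile siblings were at 6.4 and 6.33 in the ms23 family and at 8.23 and 8.99 in the ms32 family. A_92_P017389 on MAGI4_106235 had levels of 5.94, 6.08 and 6.92 in ms23 mutants, against 6.77, 7.25 and 8.65 in ms32 mutants, and a fitted log2 ratio of -0.91 ± 0.0939 (SE; limma, adjusted p = 0.00199). Its fertile siblings were at 6.47 and 6.05 in the ms23 family and at 7.86 and 8.48 in the ms32 family.

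Of the probes higher in ms23 than in ms32 mutants, A_92_P029611 on MAGI4_69685 had the smallest adjusted p. Its levels were 6.9, 7.37 and 7.61 in ms23 mutants, against 6.42, 6.54 and 6.6 in ms32 mutants (lowest, median and highest of 6 samples each), without overlap, and the log2 ratio was 0.74 (SE 0.0844, limma adjusted p = 0.0029). The largest ratio above 0 was that of A_92_P031784 on MAGI4_128592, with a log2 ratio of 0.96 (limma adjusted p = 0.0402). Its levels overlapped, at 8.41 to 9.73 in ms23 mutants and 7.97 to 8.73 in ms32 mutants. On slide 2 its mean level in ms23 minus ms32 differed by only 0.07 in mutants, against 1.4 in fertile siblings. By fitted ratio A_92_P033684 on MAGI4_8098 followed at 0.76 (adjusted p = 0.0391), then A_92_P038473 on MAGI4_30176, the brightest island probe, at 0.64 (adjusted p = 0.0285). The other 6 of the 10 largest ratios above 0, for A_92_P026094, A_92_P005318, A_92_P028069, A_92_P015203, A_92_P025002 and A_92_P006243, were 0.38 to 0.5 on the log2 scale. For A_92_P005318, 1 array of the ms23 family was left out as an outlier spot.

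The other 6 of the 10 largest ratios below 0, for A_92_P004644 and A_92_P038640 on MAGI4_45718, A_92_P027656 on MAGI4_69685, A_92_P041579 on MAGI4_34489, A_92_P010388 on MAGI4_160472 and A_92_P039139 on MAGI4_37022, were -0.75 to -0.31 on the log2 scale. A_92_P038640 and A_92_P004644 also stood higher in each mutant than in its fertile sibling, by log2 ratios of 1.11 (adjusted p = 0.108) and 0.98 (adjusted p = 0.185) in the ms23 family and of 0.67 (adjusted p = 0.506) and 0.57 (adjusted p = 0.689) in the ms32 family, none of which passed the threshold. All 20 probes named above for the direct comparison had the same sign on all 4 arrays, which was a condition for naming them. Where their levels did not overlap, the levels come from the same arrays as the calls, and the share over all probes is not given here.

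**Figure D4:**
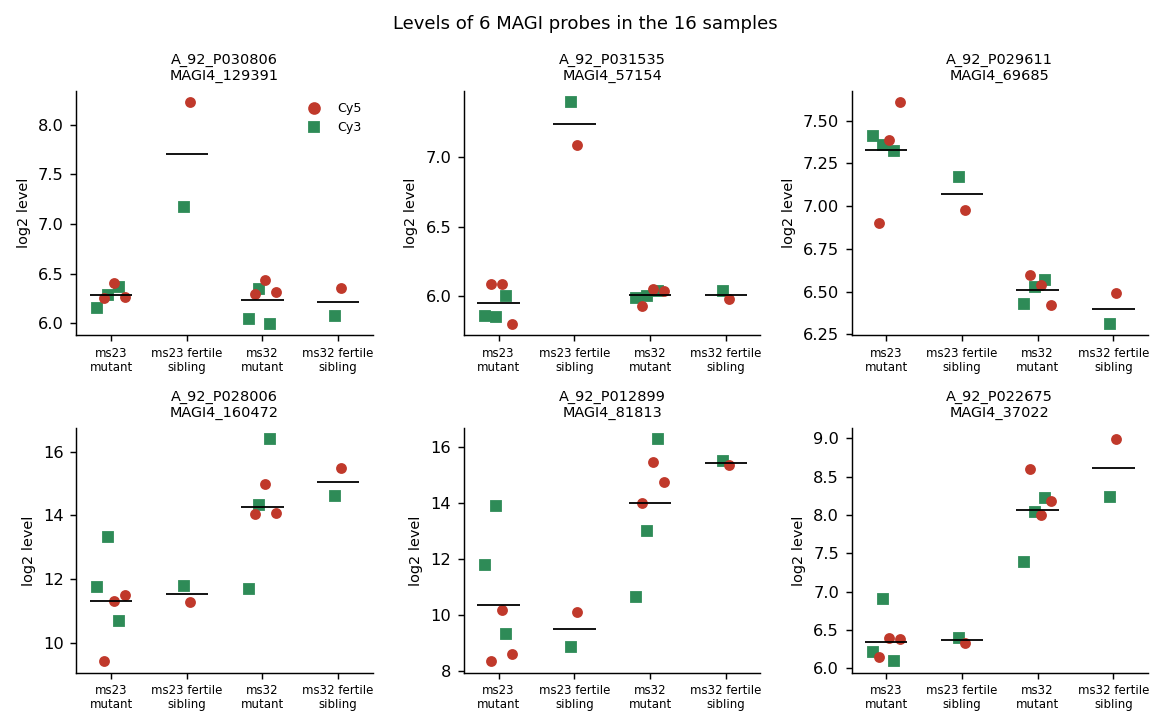
Each panel shows 1 island probe's log2 level in the 16 samples by group, Cy5 as circles and Cy3 as squares, with a bar at the group mean. A_92_P030806 and A_92_P031535 are high in the 2 samples of ms23 fertile siblings only, A_92_P029611 is higher in both groups of the ms23 family, and the other 3 probes are lower in both groups of the ms23 family. The fertile siblings of the 2 families were on different arrays.

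The fertile siblings and the third replicate of each mutant were on slide 2, whose arrays held no direct ratio of the 2 mutants. These arrays did enter the fitted spread and dye term behind the 23 calls, so the calls were not wholly separate from slide 2. From slide 1 alone 9 island probes were called. There, the mean level of ms23 mutants minus ms32 mutants had the sign of the direct ratio for 21 of the 23 called island probes (91.3%), against 92.4% of all called probes, 57.2% of the tested island probes and 70.2% of all probes tested. The mean level of ms23 fertile siblings minus ms32 fertile siblings also had that sign for 21 of 23 (91.3%), against 84.2% of all called probes, 55.6% of the tested island probes and 65.2% of all probes tested. For 11 of the 23 (47.8%) the 4 samples of the ms23 family lay wholly on that side of the 4 samples of the ms32 family, as they did for 51.5% of all called probes and for 20.7% of all probes tested. On slide 2 each family had its own arrays, so family and array cannot be told apart there. The exceptions in sign were A_92_P041579, at 0.02 for mutants and 0.12 for siblings, and A_92_P010388, at 0.71 and 0.66, both with negative direct ratios.

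**Figure D5:**
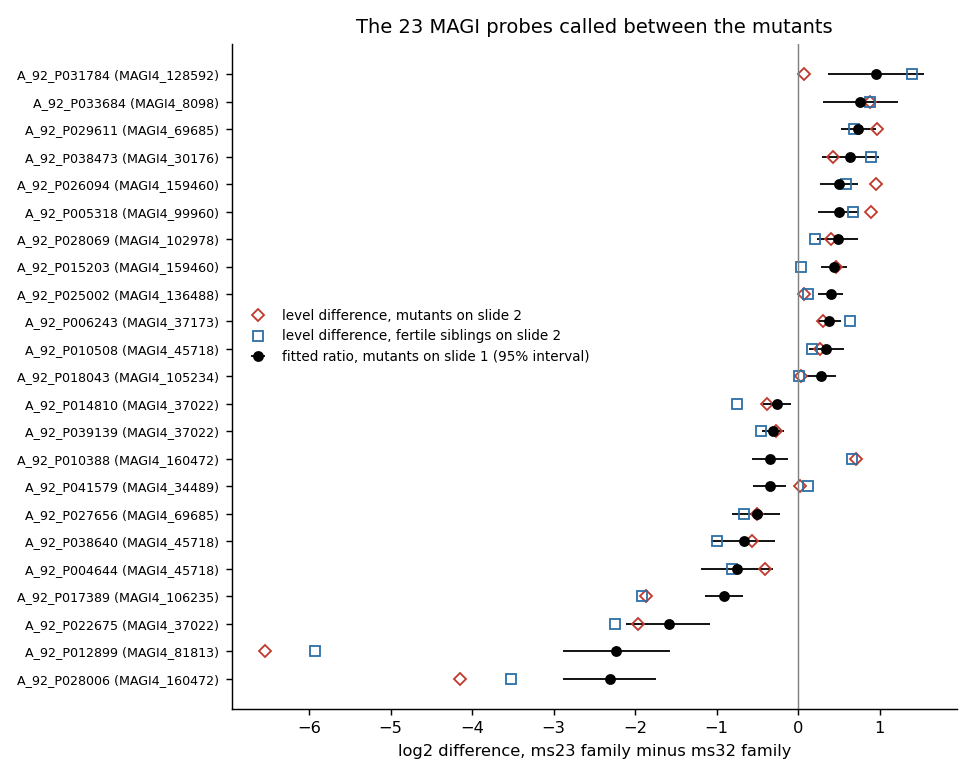
For the 23 island probes called between the mutants, filled points give the fitted log2 ratio of ms23 over ms32 mutants with its 95% interval, and open symbols give the difference in mean log2 level of the ms23 over the ms32 family on the other slide, for mutants and for fertile siblings. Open symbols fall on the same side of 0 as the fitted ratio for 21 of 23 probes, and farthest out for A_92_P012899 at -6.54 and -5.93.

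For A_92_P012899 and A_92_P028006 the differences between arrays of slide 2 were larger than the ratios within arrays of slide 1. They were -6.54 in mutants and -5.93 in siblings for A_92_P012899, against a fitted ratio of -2.23, and -4.15 and -3.52 for A_92_P028006, against -2.31. For A_92_P022675 they were -1.97 and -2.25, against -1.59, and for A_92_P029611 0.97 and 0.68, against 0.74.

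Calls were spread over 16 islands. On 5 islands 2 or more probes were called, and on 2 of these in both directions, against 16 of 135 TC targets with 2 or more called probes (11.9%), with no test of that difference. Islands carried up to 23 probes and TC targets up to 11. With the dye-swapped arrays averaged, the 6 calls left lay on 6 islands, so that 0 islands had 2 or more calls. On MAGI4_69685 A_92_P029611 was higher in ms23 than in ms32 mutants by 0.74 and A_92_P027656 lower by 0.51 on the log2 scale, while the other 3 probes, at -0.45, -0.02 and 0.26, were not called. On MAGI4_45718 A_92_P004644 and A_92_P038640 were lower by 0.75 and 0.67 and A_92_P010508 was higher by 0.34 (limma adjusted p = 0.0423), which was outside the 10 largest ratios above 0 and is named for the island.

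On the remaining 3 of the 5 islands the called probes agreed in direction. On MAGI4_37022 3 of 13 probes were called lower in ms23 mutants, A_92_P022675 with a log2 ratio of -1.59, A_92_P039139 with -0.31 and A_92_P014810 with -0.26, and the other 10 lay between -0.17 and 0.21. On MAGI4_160472 2 of 8 tested probes were called lower, A_92_P028006 with a log2 ratio of -2.31 and A_92_P010388 with -0.34, and the other 6 lay between -0.07 and 0.15. On MAGI4_159460 the 2 brightest of 4 probes were called higher, by 0.5 and 0.44, and the other 2 were at 0.14 and 0.06. On MAGI4_81813 only 1 of 2 probes was called, the other, A_92_P012687, being at 0.14.

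The count of 23 depended on how arrays were counted as replicates. With the dye-swapped arrays averaged, 6 island probes were called (1.97%), 2 higher and 4 lower, against 11.0% of all probes and 4.74% of TC probes at matched brightness. Those 6 were A_92_P028006, A_92_P012899, A_92_P022675, A_92_P017389, A_92_P029611 and A_92_P031784. The first 5 of them were called under all 23 alternatives tried, and the other 18 of the 23 lost the call under 1 or more. With the replicate block at its estimated negative correlation 39 island probes were called, 26 higher and 13 lower. With median centring in place of loess 12 were called, 3 higher and 9 lower. The island share called was below the matched TC share under the reported setting and all 23 alternatives. These alternatives share arrays, and quantile scaling of the array averages and no replicate block repeat the reported fit.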

How the data were processed

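The deposited scanner files hold linear intensity values and 0 or 1 marks of every spot in both dyes, made with Agilent Feature Extraction 10.5.1.1 on design 016047, per the file headers. A deposited table of processed intensity values served as an alternative only; limma and Agilent Feature Extraction are the tools in the submitters' processing notes, and how that table was normalized is not stated in the sources used here. Per the labels' protocols, RNA was treated with DNase and amplified before labelling.

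The analysis used R 4.3.3, limma 3.58.1 and statmod 1.5.0. Median spot intensities were background-corrected (normexp, offset 50, all spots) and loess-normalized within arrays, with weight 0 for the 1417 control spots and for outlier spots (1322 spot readings over the arrays, left out). Levels were then scaled between arrays (Aquantile). limma tested 39981 of 42034 non-control probes with a dye term over 8 arrays. Arrays sharing replicate numbers were a random block; its consensus correlation, -0.277, was set to 0. Brightness matching used 10 bins at deciles of the island probes' mean log2 intensity. The fit and the matching were tested on simulated data. The number of arrays, not counting depth, limits precision.

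Named probes were those called at an adjusted p under 0.05, at most the 10 largest per direction with 1 sign on all arrays. Where none was called, the 3 smallest p-values were named, besides the 5 brightest probes and 5 never detected. The members and lists were chosen with earlier results of these data known.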

Additional observations from a re-analysis of the deposited data

Results flagged for a closer look

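Within each group of 6 samples, the gap between an extreme sample and its neighbour, divided by the range, was set against Dixon's 95% critical value for 6 samples, and 7 of 72 such groups exceeded it. Chance alone gives about 1 in 20 for independent samples. The 6 samples of a group share replicate numbers across dyes and some items are related, so that rate need not hold here. In ms23 mutants the level of A_92_P015203 was 13.34 in replicate 1 Cy5, next to 14.15, that of A_92_P022675 was 6.9 in replicate 2 Cy3, next to 6.39, and that of A_92_P038640 was 13.09 in replicate 1 Cy5, next to 12.33. In ms32 mutants the level of A_92_P039139 was 6.61 in replicate 2 Cy3, next to 6.33, and that of A_92_P034660 was 5.97 in replicate 2 Cy5, next to 6.16. A_92_P000152 at 6.07 in replicate 3 Cy3, next to 5.93, and A_92_P004120 at 6.1 in replicate 2 Cy3, next to 5.92, were probes never well above background. Detected shares and class levels gave no such sample.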

How the results depend on the processing

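Alternatives were limma fits with other normalizations, filters, blocks, dye terms and array subsets, and for detection and level other marks, brightness measures and comparison classes. Matching to the 50 nearest TC probes and detection against the negative control spots were chosen after seeing the data. For 28 ratios of named probes, 501 of 640 refits kept direction and side of the threshold, 135 kept direction but lost the call, 4 gained one, and 0 reversed; the cause was not tested.

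Between ms23 and ms32 mutants, 23 island probes were called, against 39 with the replicate block at its estimated correlation, 12 with median centring, 14 with scaling between arrays, 13 with a dye term per slide, 9 from slide 1 alone and 6 with dye swaps averaged, where fewer arrays enter. Leaving out 1 array gave 10 to 18. The lowest counts were 10 without array 3 of slide 1 and 11 without array 4, with 13 without array 2 of slide 1 or without array 3 or 4 of slide 2. In the ms23 family the 2 calls became 8 with the estimated replicate block, 5 with the scanner software's processed signals, 4 with an intensity trend, 1 with the deposited values and 0 with slide 2 alone or swaps averaged, and leaving out 1 array gave 0 to 2, with 0 without either array of that family. In the ms32 family 0 became 2 with the processed signals and 1 with the estimated replicate block, and for the difference of effects 0 became 2 with an intensity trend. With no replicate block the counts were the same as reported.

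At an unadjusted p under 0.05, the island share minus the matched TC share became 2.01 percentage points for ms23 and -1.56 for ms32 against fertile siblings, where the reported values were 0.034 and -0.294. The unmatched detection gap at 1.5 times the local background was -16.3 points in ms23 mutants, -21.1 in ms23 fertile siblings, -16.7 in ms32 mutants and -16.6 in ms32 fertile siblings. Against all other probes it was -22.4 in ms23 and -22.2 in ms32 fertile siblings, and against the negative control spots -26.1 in ms23 fertile siblings. The matched gap in ms23 fertile siblings became 0.318, -1.68 and -0.834 points with 1.5 times the background, the negative controls and brightness as a median over samples. The level of island minus TC probes in ms23 mutants, ms23 fertile siblings, ms32 mutants and ms32 fertile siblings was -4.67, -4.89, -4.86 and -5.07 with processed signals, -2.93, -2.96, -2.99 and -2.95 with an offset of 10, and -2.33, -2.25, -2.39 and -2.40 with deposited values.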
